A study of Rattus norvegicus with 12 samples.

Results

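The sprouty genes Spry1, Spry2 and Spry4, the sprouty-related gene Spred1, the ETS factor genes Etv1, Etv4 and Etv5, the ERK phosphatase gene Dusp6 and the immediate early genes Egr1 and Fos were examined in oligodendrocyte precursor cells (OPCs) of the rat. These 10 genes were chosen by symbol as transcripts that follow FGF and PDGF signalling through the RAS, RAF, MEK and ERK kinases. Each symbol matched 1 row of the 30562 genes in the deposited count table, and all 10 passed the filter on low values that left 8938 genes for testing. The cells were wild-type OPCs from brain, taken according to the study's methods from the cortex of newborn Sprague-Dawley rats and grown as a primary culture in medium with FGF-2 and PDGF-AA. The 6 mild-hypo-OPC libraries came from cells kept at an FiO2 of 5%, and the 6 standard OPC libraries from cells kept in room air. The labels give an exposure of 6 hours and the methods give 6 days. No allele or agent other than the oxygen level separated the groups. The legend of the study gives n = 3 per group against 6 deposited libraries, so libraries of the same group may share a culture, and p-values measure the spread between libraries only.

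FGF-2 and PDGF-AA bind receptor tyrosine kinases, which load RAS with GTP and start the RAF, MEK and ERK kinase cascade. Active ERK induces immediate early genes within minutes and, later, genes whose products act back on the cascade: sprouty and SPRED proteins limit RAS activation, DUSP6 removes the activating phosphates of ERK, and the ETV factors carry the transcriptional response. In OPCs, PDGF receptor alpha signalling supports proliferation and survival, and FGF-2 holds the cells in the precursor state.

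The data were read counts per gene from bulk RNA-seq, and levels are given as CPM (counts per 1e+06 counts of the library) after scaling with edgeR's TMM factors. Total counts lay between 4111669 and 9022324 for the mild-hypo-OPC libraries, with a median of 4915674.5, and between 1356079 and 2797513 for the standard OPC libraries, with a median of 1952621, so that the depth of the 2 groups did not overlap. Ribosomal RNA genes took 17.4% to 25.3% of a mild-hypo-OPC library and 23.9% to 38.4% of a standard OPC library. The summed level of 12 oligodendrocyte lineage markers was 14400 to 15200 CPM in mild-hypo-OPCs, against 10800 to 13900 CPM in standard OPCs, and 4 of the 12 were called higher, among them Gpr17, Mag and Nkx2-2. Microglial markers (3 higher and 1 lower of 6 tested, Csf1r highest) summed to 69.2 to 98.8 CPM against 37.7 to 71.3 CPM. Astrocyte markers summed to 859 to 1000 against 814 to 918 CPM (2 higher and 1 lower of 8 tested, Gfap highest), neuronal markers to 362 to 421 against 271 to 347 CPM (1 higher of 6 tested, Map2 highest), and mesenchymal and endothelial markers to 28.9 to 44.6 against 17.8 to 28.2 CPM, nearly all of it Tagln, with Lum and Cdh5 at 0 throughout. The part of the other cell types in the results was not tested, and depth and condition cannot be told apart. In bulk libraries, fewer cells of a type and less RNA per cell cannot be told apart.

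None of the 10 genes passed an adjusted p-value of 0.05 between mild-hypo-OPCs and standard OPCs. In edgeR's quasi-likelihood test, 0 were higher, beside 7.00% of all genes tested, and 0 were lower, beside 17.0% of all genes. Limma-voom and DESeq2 also called 0 of the 10, as did edgeR with the ribosomal RNA genes left out. At an unadjusted p-value under 0.05, each of the 3 tools returned only Egr1, whereas 36.3% of all genes passed that limit in edgeR. The libraries of the 2 groups overlapped for each of the 10 genes, and they were fully separated for 8.35% of all genes. Log2 fold changes, positive where mild-hypo-OPCs were higher, ran from -0.18 for Spry1 to 0.53 for Egr1, with a median of 0.06 over the 10 genes and -0.003 over all genes.

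**Figure D1:**
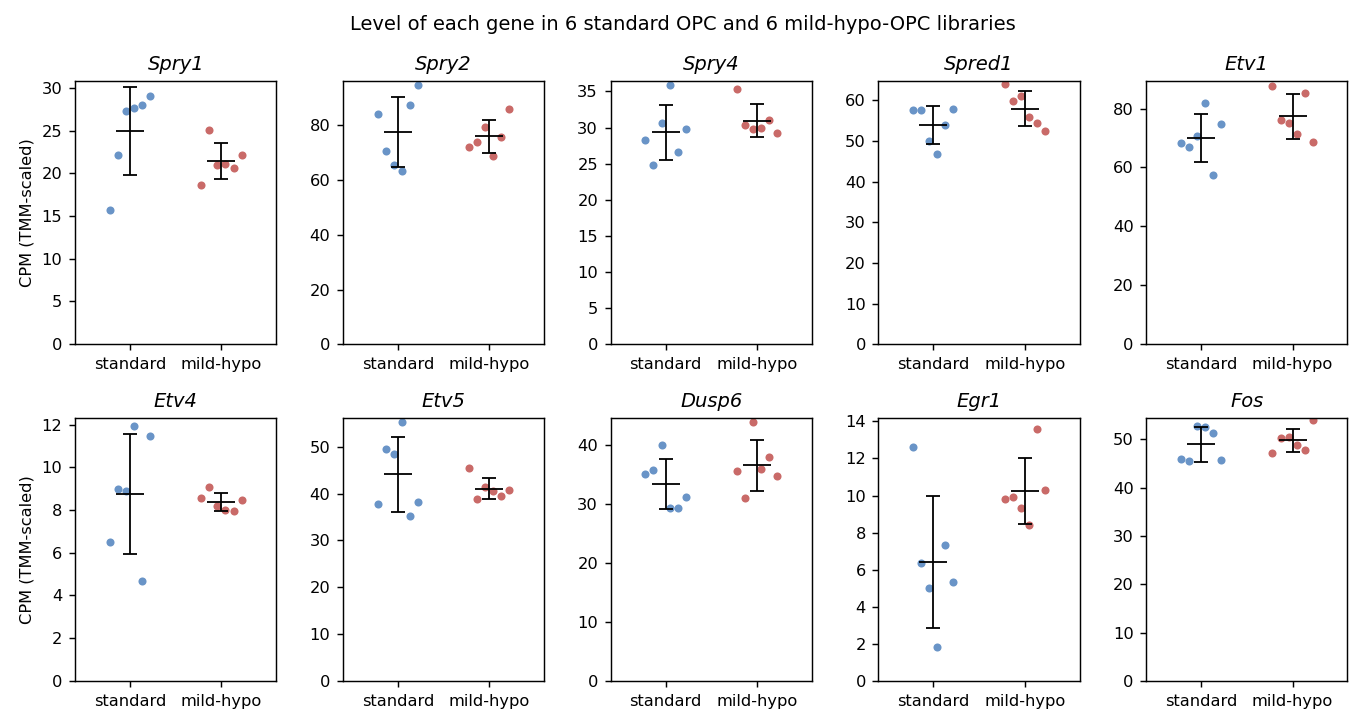
Level of the 10 genes (vertical axis, TMM-scaled CPM from 0) in the 6 standard OPC libraries (blue, replicates 1 to 6 from left to right) and the 6 mild-hypo-OPC libraries (red, in the same order), with mean and SD in black. The 2 groups overlap in each panel, and the standard OPC libraries of Egr1 range from 1.84 to 12.6 CPM while those of Fos range from 45.4 to 52.8 CPM.

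The sprouty proteins are membrane-associated inhibitors that act between receptor tyrosine kinases and RAS. Spry1 (ENSRNOG00000025371) lay at 18.7, 21.1 and 25.1 CPM (lowest, median and highest library) in mild-hypo-OPCs and at 15.7, 27.4 and 29.0 CPM in standard OPCs. All 6 mild-hypo-OPC libraries were below the median of the standard OPCs, but the lowest value of all belonged to standard OPC replicate 1. The log2 fold change of Spry1 was -0.18 (SE 0.14, 95% interval -0.47 to 0.11, adjusted p = 0.368, edgeR).

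Spry2 (ENSRNOG00000010058) was measured at 68.8, 75.0 and 85.9 CPM in mild-hypo-OPCs and 63.5, 77.4 and 94.7 CPM in standard OPCs. The mild-hypo-OPC libraries thus lay inside the range of the standard OPCs, and their mean of 76.02 ± 5.98 CPM (SD, n = 6) was close to 77.7 ± 12.8 CPM (SD, n = 6). The log2 fold change was -0.03 (SE 0.10, 95% interval -0.24 to 0.17, adjusted p = 0.841, edgeR).

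For Spry4 (ENSRNOG00000013851), the values were 29.3, 30.1 and 35.4 CPM in mild-hypo-OPCs and 24.8, 29.0 and 35.9 CPM in standard OPCs. All 6 mild-hypo-OPC libraries were above the median of the standard OPCs, although none exceeded the highest standard OPC library. The log2 fold change was 0.10 (SE 0.10, 95% interval -0.11 to 0.31, adjusted p = 0.508, edgeR).

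Spred1 (ENSRNOG00000070996) encodes a membrane protein that brings the RAS GTPase-activating protein neurofibromin to RAS. Its level was 52.5, 57.9 and 63.9 CPM in mild-hypo-OPCs and 46.9, 55.8 and 58.0 CPM in standard OPCs. In 3 of the 6 mild-hypo-OPC libraries Spred1 was above every standard OPC library, and the other 3 fell within their range. The log2 fold change of 0.10 (SE 0.08, 95% interval -0.08 to 0.27) had an adjusted p of 0.446 in edgeR's test.

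The upstream sequences of Dusp6 and Spry4 are shown because each holds repeated copies of the octamer bound by Capicua, a repressor that ERK signalling releases from ETV, sprouty and DUSP genes, and that of Egr1 because it holds CArG boxes, the sites of serum response factor. They were read 5′ to 3′ on the strand of the gene, up to its start, from RefSeq on the GRCr8 assembly, which is not the mRatBN7.2 build of the counts. Capitals mark the matches, which for Dusp6 and Spry4 read as the reverse complement of the octamer. The stretches are chr7:35979504-35979603 (plus strand) for Dusp6, chr18:30702547-30702646 (minus strand) for Spry4 and chr18:26736928-26737077 (plus strand) for Egr1.
Dusp6: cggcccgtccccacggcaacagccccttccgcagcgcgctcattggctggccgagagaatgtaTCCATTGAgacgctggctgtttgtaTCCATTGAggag
Spry4: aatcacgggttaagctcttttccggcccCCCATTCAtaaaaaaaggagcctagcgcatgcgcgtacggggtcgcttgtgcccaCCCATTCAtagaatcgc
Egr1: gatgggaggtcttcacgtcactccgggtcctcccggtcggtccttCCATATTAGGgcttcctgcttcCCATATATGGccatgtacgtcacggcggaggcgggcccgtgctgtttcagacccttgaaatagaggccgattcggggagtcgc

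An upstream window of 250 bases was listed for 8 of the 10 genes, and Etv4 and Fos had no entry. The octamer was searched on both strands as TCAATGAA, TCAATGAG, TCAATGGA, TCAATGGG, TGAATGAA, TGAATGAG, TGAATGGA and TGAATGGG. Dusp6 held 2 matches, from -37 to -30 and from -12 to -5 relative to the start, and Spry4 held 3, of which those from -72 to -65 and from -17 to -10 are printed and 1 lay from -198 to -191. The windows of Spry1, Spry2, Spred1, Etv1, Etv5 and Egr1 held no octamer. At least 1 octamer occurred in 6.17% of 33465 rat windows of this length, at least 2 in 0.397% and at least 3 in 0.0598%. Egr1 had 2 CArG boxes, from -105 to -96 and from -83 to -74, and Etv1 had 1, against at least 1 in 1.5% and at least 2 in 0.0209% of the windows. Another motif, the TGACG core of the cyclic AMP response element, occurred at 2 positions in Egr1 and at 1 position in Spry2, and in 18.2% of the windows. These matches describe the letters of the windows, and binding was not measured.

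ETV1, ETV4 and ETV5 form the PEA3 group of ETS transcription factors, which FGF signalling induces in many tissues. Etv1 (ENSRNOG00000006867) lay at 68.6, 75.7 and 87.8 CPM in mild-hypo-OPCs and at 57.3, 69.5 and 81.9 CPM in standard OPCs. The mild-hypo-OPC mean of 77.4 ± 7.65 CPM (SD, n = 6) exceeded that of 70.0 ± 8.21 CPM (SD, n = 6) by less than 1 SD. Etv1 had a log2 fold change of 0.16 (SE 0.09, 95% interval -0.04 to 0.35, adjusted p = 0.237, edgeR), the next largest after Egr1 among the positive values.

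Etv4 (ENSRNOG00000020792) was counted 39 to 82 times per mild-hypo-OPC library and 7 to 17 times per standard OPC library. Its levels of 7.96, 8.33 and 9.06 CPM in mild-hypo-OPCs and 4.67, 8.94 and 11.96 CPM in standard OPCs gave a log2 fold change of -0.005 (SE 0.19, 95% interval -0.41 to 0.40, adjusted p = 0.99, edgeR). The mild-hypo-OPC libraries lay close together inside a wide standard OPC range. Etv4 passed the filter, a CPM above 10 before TMM scaling, through 1 mild-hypo-OPC library and 0 standard OPC libraries. Its interval does not exclude changes between -0.41 and 0.40, and the smallest change that the test would call was not computed.

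Etv5 (ENSRNOG00000001785) lay at 38.9, 40.7 and 45.5 CPM in mild-hypo-OPCs and at 35.3, 43.3 and 55.2 CPM in standard OPCs. Its standard OPC values spanned the mild-hypo-OPC values on both sides. The log2 fold change was -0.09 (SE 0.11, 95% interval -0.31 to 0.13, adjusted p = 0.586, edgeR).

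Dusp6 (ENSRNOG00000023896), the phosphatase that binds and inactivates ERK in the cytoplasm, lay at 31.1, 35.9 and 44.0 CPM in mild-hypo-OPCs and at 29.3, 33.2 and 40.0 CPM in standard OPCs. The ranges coincided over most of their length. Dusp6 had a log2 fold change of 0.11 (SE 0.11, 95% interval -0.12 to 0.34, adjusted p = 0.494, edgeR). Spry4 and Dusp6, whose windows hold the repeated octamer, had log2 fold changes of 0.10 and 0.11, and neither passed the test.

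Fos (ENSRNOG00000008015), which encodes a subunit of the AP-1 transcription factor, had the lowest coefficient of variation of the 10 genes in each group, with Etv4 close to it in mild-hypo-OPCs (on the log2 scale the SD there was 0.0685 for Fos and 0.0632 for Etv4). Its level was 47.3, 49.5 and 54.0 CPM in mild-hypo-OPCs and 45.4, 48.6 and 52.8 CPM in standard OPCs, with coefficients of variation of 4.92% and 7.35%. The means were 49.8 ± 2.45 CPM (SD, n = 6) and 48.9 ± 3.60 CPM (SD, n = 6). Fos had the narrowest interval of the 10 genes, from -0.14 to 0.20 around a fitted log2 fold change of 0.03 (SE 0.08, adjusted p = 0.839, edgeR).

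Egr1 (ENSRNOG00000019422), a zinc finger transcription factor induced through serum response factor and its ERK-activated partners, varied the most between libraries. Its level was 8.40, 9.88 and 13.6 CPM in mild-hypo-OPCs and 1.84, 5.84 and 12.6 CPM in standard OPCs. All 6 mild-hypo-OPC libraries were above the standard OPC median, yet only 1 of them was above standard OPC replicate 1. The means of 10.2 ± 1.78 CPM (SD, n = 6) and 6.41 ± 3.56 CPM (SD, n = 6) put the log2 fold change at 0.53 (SE 0.25, 95% interval 0.01 to 1.05). Its unadjusted p was 0.0474 and its adjusted p 0.133 in edgeR's test, and Egr1 is therefore not called.

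**Figure D2:**
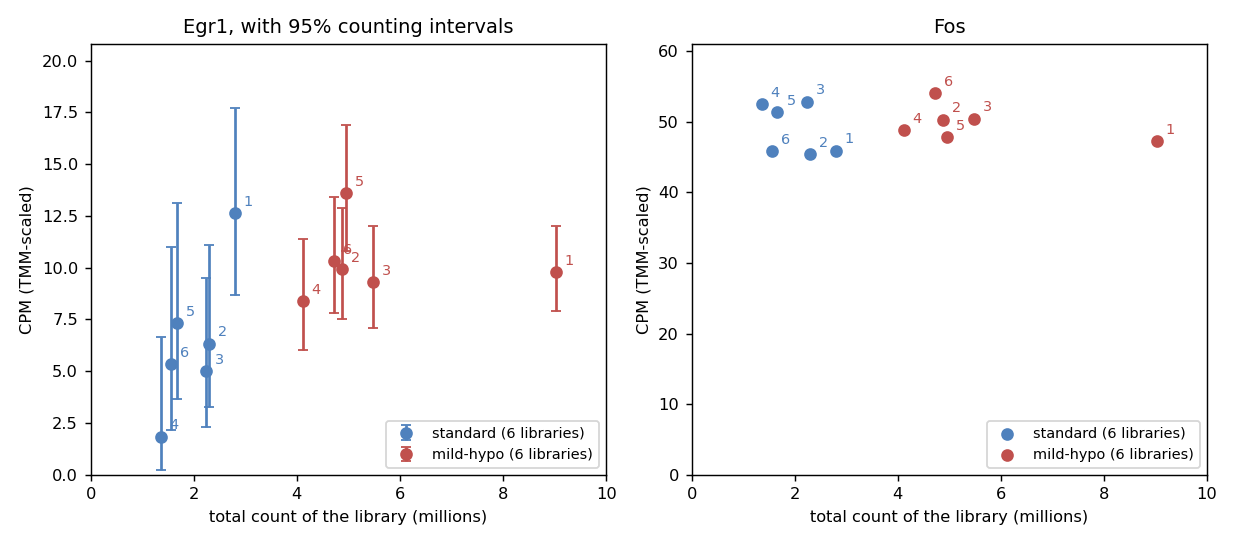
Level of Egr1 (left, TMM-scaled CPM with exact 95% Poisson intervals of the count) and Fos (right, TMM-scaled CPM) against the total count of each library, in units of 1e+06, for 6 standard OPC (blue) and 6 mild-hypo-OPC (red) libraries numbered by replicate. Among standard OPCs, Egr1 was highest in replicate 1, which had the largest total, and lowest in replicate 4, which had the smallest, and the Fos values form a flat band from 45.4 to 54.0 CPM.

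The Egr1 counts behind these levels were small in standard OPCs. The count was 33 in replicate 1 (12.6 CPM, exact 95% Poisson interval 8.69 to 17.7 CPM) and 2 in replicate 4 (1.84 CPM, interval 0.223 to 6.65 CPM), and between 7 and 12 in the other 4 libraries, which lay between 5.01 and 7.33 CPM. Mild-hypo-OPC libraries held 41 to 94 counts. These intervals cover counting error only, and those of replicates 1 and 4 did not overlap. Egr1 passed the filter through 5 mild-hypo-OPC libraries and 1 standard OPC library.

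The comparison of Egr1 turned on the libraries included. Without standard OPC replicate 1 the log2 fold change was 0.93 and the adjusted p 0.00849 (edgeR), so that Egr1 was then called, and without any other single library it was not. In replicates 4 to 6 alone it was 1.09 with an adjusted p of 0.0461, and in replicates 1 to 3 alone 0.22 with an adjusted p of 0.737. The difference between these subsets was not tested. When log2 total count was added to the model as a covariate, the log2 fold change of Egr1 was 0.09 (SE 0.47, adjusted p = 0.997, edgeR). The SE without the covariate was 0.25. None of the other 9 genes was called with the covariate either, and over all 8938 genes 0 were called higher and 43 lower. As the depth of the groups did not overlap, a fit with this covariate cannot tell depth from condition.

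Egr1 can be set beside other immediate early genes. Fos did not share its pattern: in standard OPC replicates 1 and 4 it lay at 45.9 and 52.5 CPM, both within the narrow band of the remaining libraries. Rhob, the gene of a small GTPase that growth factors induce quickly, was highest in standard OPC replicate 1 (45.9 CPM) and lowest in replicate 4 (0.92 CPM), as Egr1 was, and it is set beside Egr1 after its values were seen. Sgk1 was likewise highest in replicate 1 (249.7 CPM) and lowest in replicate 4 (178.5 CPM). Outside the immediate early genes, Dusp7 (117.8 and 80.06 CPM) and Gpc1 (124.3 and 72.7 CPM) were also highest in replicate 1 and lowest in replicate 4. Sgk1, Dusp7 and Gpc1 too are set beside Egr1 after their values were seen. Jun, Junb and Btg1 matched in part or not at all. Among standard OPC libraries Jun was lowest in replicate 4 (42.3 CPM), as Egr1 was, but highest in replicate 2 (60.2 CPM). Junb was highest in replicate 1 (13.4 CPM), as Egr1 was, but lowest in replicate 6 (6.11 CPM). Btg1 was lowest in replicate 1 (20.3 CPM) and highest in replicate 6 (47.3 CPM). The remaining standard OPC values of Rhob were 40.1, 16.7, 7.997 and 20.6 CPM.

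The ratio of 2 genes within a library is free of any scaling factor, and Pdgfra, the PDGF receptor gene that marks OPCs, served as the denominator. Pdgfra itself averaged 236 CPM in mild-hypo-OPCs and 229 CPM in standard OPCs, with a log2 fold change of 0.05 (SE 0.10, 95% interval -0.16 to 0.25, adjusted p = 0.765, edgeR). The mean log2 ratio to Pdgfra differed between mild-hypo-OPCs and standard OPCs by -0.24 for Spry1, -0.13 for Etv5, -0.07 for Spry2, -0.04 for Etv4 and -0.02 for Fos. It differed by 0.04 for Spry4, 0.06 for Spred1, 0.08 for Dusp6, 0.10 for Etv1 and 0.82 for Egr1. Only the value of Egr1 exceeded 0.3 in size, and its log2 ratio spanned -4.77 to -4.31 in mild-hypo-OPCs but -7.28 to -4.06 in standard OPCs, the lowest resting on the 2 counts of replicate 4. The ranges of the 2 groups overlapped for each of the 10 ratios. These ratios are descriptions and were not tested.

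Ratios among the 10 genes show how the members moved against each other. The log2 ratio of Etv1 to Etv5 spanned 0.75 to 1.11 in mild-hypo-OPCs, against 0.43 to 0.97 in standard OPCs, a mean difference of 0.23. For Spry1 to Spry2 the means differed by -0.18, for Spry4 to Spry2 by 0.10 and for Dusp6 to Spry4 by 0.04. The ranges of the groups overlapped for each of these pairs. Fos to Egr1 differed most, by -0.84 on the log2 scale, with 1.81 to 2.54 for mild-hypo-OPCs and 1.86 to 4.83 for standard OPCs, where the highest again rests on 2 counts of Egr1. For Dusp6 over Mapk3, the gene of a kinase that it inactivates, the difference was -0.04.

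The result for the 10 genes depended on how libraries were scaled. With library size alone, 8 of them were called higher and 0 lower in edgeR's test, but so were 61.7% of all genes, with 4.53% lower, and the all-gene median on the log2 scale became 0.43. The 8 genes were Spry2 (0.40), Spry4 (0.53), Spred1 (0.53), Etv1 (0.59), Etv5 (0.35), Dusp6 (0.55), Egr1 (0.95) and Fos (0.46). Spry1 (0.25, adjusted p = 0.11) and Etv4 (0.42, adjusted p = 0.0589) were not called in that fit. Relative to the shift of all genes, the fold changes ran from -0.17 for Spry1 to 0.52 for Egr1, much as with TMM factors.

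**Figure D3:**
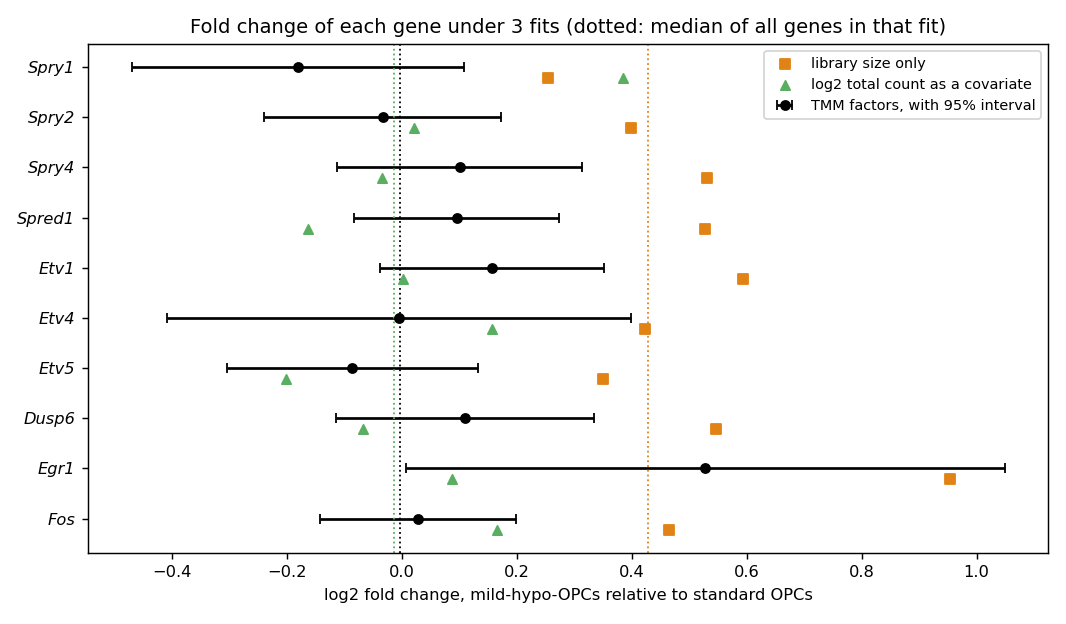
Log2 fold change of the 10 genes (horizontal axis, positive where mild-hypo-OPCs were higher) with TMM factors (black, with 95% intervals), with library size only (orange) and with a term for log2 total count (green), and the median of all genes in each fit as a dotted line of that colour. With TMM factors the intervals cross 0 for each gene except Egr1 (0.01 to 1.05), and with library size only the genes lie around the all-gene median of 0.43.

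The surrounding pathway was described with 6 lists of 151 genes that left out these 10. Of these, 149 were matched by symbol (Dusp1 was not analysed here) and 98 passed the filter. In edgeR's test 14 were higher (14.3%, beside 7.00% of all genes) and 9 were lower (9.18%, beside 17.0%) in mild-hypo-OPCs, with a median log2 fold change of 0.13. Positive fold changes made up 66.3% of the 98 and 49.6% of all genes. With library size only, 74 were higher and 1 lower, the 14 higher genes and Rhob kept their calls, and Araf, Lamtor3 and Pebp1 changed sign. With a term for log2 total count, 0 of the 98 were called in edgeR's test, and of the 23 calls 2 (Rhob and Vgf) were kept in replicates 1 to 3 and 16 in replicates 4 to 6. Calls over all genes fell as well: the term for log2 total count left 0 higher and 43 lower of 8938. Replicates 1 to 3 gave 53 higher and 343 lower of 8554 genes, and replicates 4 to 6 gave 569 and 1381 of 8785.

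At the top of the pathway, 3 of 11 tested receptors, ligands and co-receptors rose and 0 fell, beside 7.00% and 17.0% of all genes. Fgfr1, an FGF receptor of early precursors, averaged 123 CPM in mild-hypo-OPCs and 95.9 CPM in standard OPCs (log2 fold change 0.34, SE 0.10, adjusted p = 0.0142, edgeR). Fgfr2, the receptor of later oligodendrocytes, rose by 0.34 on the log2 scale (SE 0.10, adjusted p = 0.0207), and Gpc1, the gene of the FGF-2 co-receptor glypican-1, by 0.38 (SE 0.10, adjusted p = 0.013). Fgfr3 did not pass (0.02, adjusted p = 0.952, edgeR), Fgfr4 had 0 to 3 against 0 to 2 counts, and Pdgfrb, a receptor of mural cells, had 2 to 6 counts against 0 in the shallower standard OPC libraries.

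Among the adaptors and regulators of RAS, 2 of 22 tested genes rose and 1 fell, beside 7.00% and 17.0% of all genes. Gab2, a docking protein gene, rose by 0.45 on the log2 scale (SE 0.13, adjusted p = 0.0177, edgeR), and Ptpn11, the gene of the phosphatase SHP2, by 0.28 (SE 0.08, adjusted p = 0.0143). Hras averaged 38.7 CPM in mild-hypo-OPCs and 62.0 CPM in standard OPCs (log2 fold change -0.66, SE 0.12, adjusted p = 0.000802, edgeR), and it was at -0.22 and uncalled with library size only (adjusted p = 0.123).

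Of 23 tested genes of the RAF, MEK and ERK tier, 1 rose and 4 fell, the latter a share close to the 17.0% of all genes that were lower. The ERK gene Mapk3 did not pass (0.17, adjusted p = 0.164, edgeR). Map2k2, which encodes MEK2, fell by 0.45 (SE 0.12, adjusted p = 0.0109), the RAF inhibitor gene Pebp1 by 0.44 (SE 0.13, adjusted p = 0.0174), the scaffold gene Lamtor3 by 0.43 (SE 0.14, adjusted p = 0.0304) and the kinase gene Araf by 0.33 (SE 0.11, adjusted p = 0.0304, edgeR), but with library size only Map2k2 was at -0.01 (adjusted p = 0.942) and the last 3 turned to 0.01, 0.01 and 0.10, none of them called. Atxn1l, the gene of a partner of Capicua, rose by 0.37 (SE 0.12, adjusted p = 0.0259, edgeR), and Cic, that of Capicua, did not pass (0.18, adjusted p = 0.216).

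The remaining feedback genes gave 4 higher and 0 lower of 14 tested, beside 7.00% and 17.0% of all genes. Dusp7, whose product belongs to the ERK phosphatases like DUSP6, lay at 118 to 138 CPM in mild-hypo-OPCs, against 80.1 to 118 CPM in standard OPCs (log2 fold change 0.39, SE 0.09, adjusted p = 0.00366, edgeR). Rasa3, a RAS GTPase-activating protein gene, rose by 0.33 (SE 0.08, adjusted p = 0.00755), Dusp8, whose product prefers JNK and p38, by 0.59 (SE 0.19, adjusted p = 0.0288) and Il17rd, the gene of the FGF signalling inhibitor SEF, by 0.47 (SE 0.16, adjusted p = 0.043, edgeR). Limma-voom called neither Dusp8 (adjusted p = 0.0729) nor Il17rd (adjusted p = 0.0821), and DESeq2 did not call Il17rd (adjusted p = 0.0715). Spred2, the close relative of Spred1, did not pass (-0.13, adjusted p = 0.558, edgeR), nor did Dusp4, with 31 to 72 against 4 to 12 counts, in the fit without the filter (0.63, SE 0.24, adjusted p = 0.0842).

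Other immediate early genes gave 1 higher and 3 lower of 19 tested, close to the 7.00% and 17.0% of all genes. The kinase gene Sgk1 rose by 0.30 (SE 0.08, adjusted p = 0.013), while the antiproliferative gene Btg1 fell by 0.58 (SE 0.15, adjusted p = 0.00898) and the stress sensor gene Gadd45b by 0.54 (SE 0.17, adjusted p = 0.0275, edgeR). With library size only, Btg1 was at -0.14 (adjusted p = 0.384) and Gadd45b at -0.11 (adjusted p = 0.566, edgeR), and neither was called. Rhob fell by 1.36 (SE 0.35, adjusted p = 0.00844, edgeR) but passed neither in limma-voom (adjusted p = 0.136) nor in DESeq2 (adjusted p = 0.105), and it was at -2.01 in replicates 1 to 3 and 0.05 in replicates 4 to 6, a difference that was not tested. Jun (0.12, adjusted p = 0.354) and Junb (-0.16, adjusted p = 0.546), partners of FOS in AP-1, did not pass in edgeR, and Fosb (2 to 8 against 0 to 3 counts) and Egr2 (0 to 3 against 0 to 1) were below the filter. The fit without a filter called 4.22% of 17391 genes higher and 8.72% lower, and among the genes it added were Atf3 (-0.79, SE 0.24, adjusted p = 0.0189, edgeR), Klf2 and Pdgfrb. The last 2 had 0 counts in each standard OPC library and get no fold, and Atf3 and Klf2 are named after their values were seen.

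The last list, of ERK-dependent targets outside the feedback loop, gave 3 higher and 1 lower of 9 tested, beside 7.00% and 17.0% of all genes. Vgf, the gene of a growth factor-induced secreted protein, had the largest rise of the 98 genes, from 4.75 to 9.92 CPM in standard OPCs to 11.3 to 17.1 CPM in mild-hypo-OPCs (log2 fold change 0.92, SE 0.19, adjusted p = 0.00163, edgeR). The matrix gene Tnc rose by 0.75 (SE 0.20, adjusted p = 0.00987) and Phlda1 by 0.49 (SE 0.14, adjusted p = 0.0164), while Spp1, the gene of osteopontin, fell by 0.51 (SE 0.17, adjusted p = 0.0361, edgeR). With library size only, Spp1 was at -0.07 and uncalled (adjusted p = 0.728, edgeR). Fgfr2, Gab2, Il17rd, Dusp7 and Vgf, 5 of the 98, were separated between the groups, beside 8.35% of all genes. For Fgfr2 the lowest mild-hypo-OPC library (80.93 CPM) barely exceeded the highest standard OPC library (80.8 CPM). For Dusp7 these 2 libraries were equal as rounded (117.8 CPM).

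**Figure D4:**
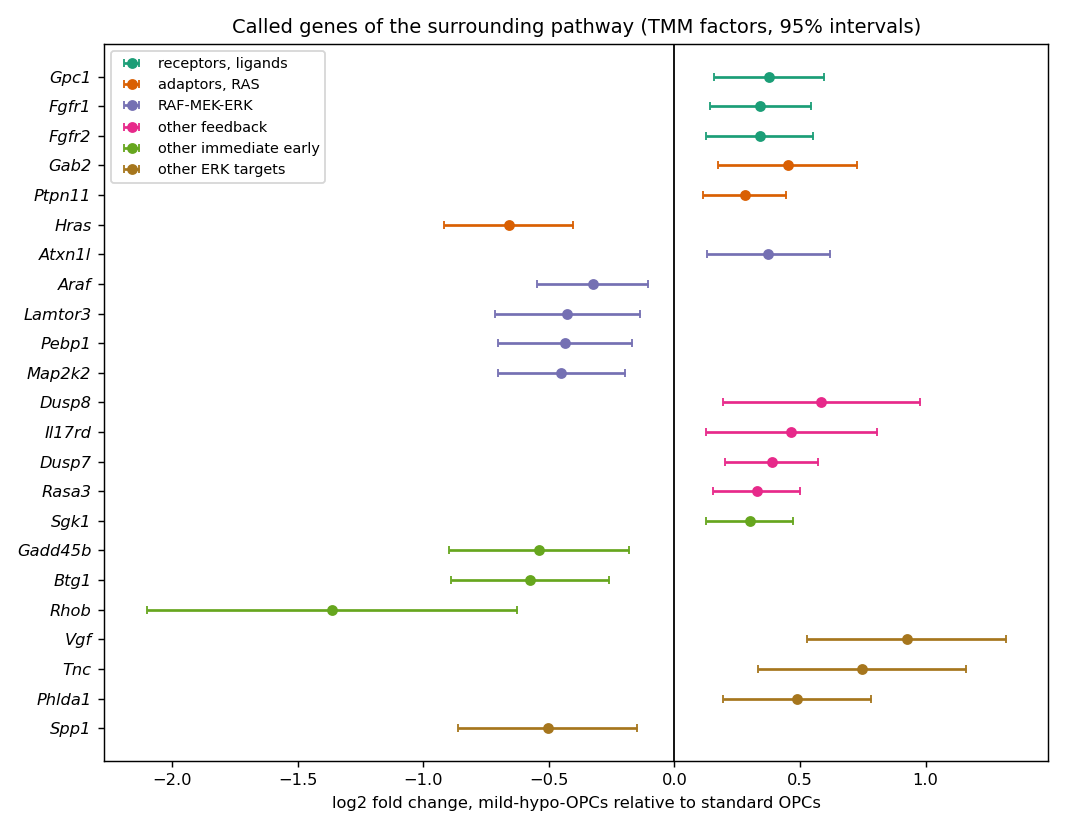
Log2 fold change (horizontal axis, positive where mild-hypo-OPCs were higher, TMM factors) with 95% intervals for the 23 called genes of the surrounding pathway, coloured by list. The 14 higher genes include all called receptor and feedback genes, and the 4 lower of 23 tested genes of the RAF, MEK and ERK tier stand beside 17.0% lower of all genes. Araf, Lamtor3 and Pebp1 change sign with library size only.

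Of these 23 calls, 15 were kept whichever of the 12 libraries was left out. Each of the 12, left out alone, ended some of the others, and 17 to 21 were kept. The 8 genes concerned were Araf, Lamtor3, Gadd45b and Spp1 (each lost in 7 fits), Il17rd (8 fits), Pebp1 and Dusp8 (4 fits each) and Atxn1l (3 fits), with adjusted p-values between 0.0509 and 0.111 where the call was lost (edgeR). Of the 10 feedback, ETS and immediate early genes, Egr1 without standard OPC replicate 1 was the one that gained a call in these fits.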

How the data were processed

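The authors made strand-specific libraries, trimmed the reads with Trimmomatic 0.36, checked them with FastQC 0.11.9, aligned them to mRatBN7.2 with STAR 2.7.9a and quantified genes with RSEM 1.3.3. The deposited table holds counts as whole numbers, without normalization, for 30562 Ensembl genes (13171 of them 0 throughout) in 12 libraries. How RSEM's estimates became whole is not given in the sources used here. 0 columns were left unused.

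Groups came from the labels. The filter of the study's methods (CPM over 10 in 1 library or more) was used. Library sizes were summed over kept genes, TMM factors computed, and glmQLFit and glmQLFTest run on the counts in edgeR 4.0.16 (R 4.3.3), with condition alone in the model, and p-values were adjusted after Benjamini and Hochberg over 8938 genes (threshold 0.05). The standard error is the one implied by the F statistic. Within-library log2 ratios were taken on the counts with no prior count. limma 3.58.1 (voom) and DESeq2 1.42.0 were alternatives, with other scaling factors, filters, a replicate block, replicate subsets, a depth covariate, thinning, removal of 78 ribosomal RNA genes and leaving out each library. The tests were tested on simulated data, in which the changed genes differed by more than any of the 10 genes did here. Changes as small as those of the 10 genes were not simulated. No 2 libraries within a group agreed within sampling noise (15 pairs each, chi-square divided by its degrees of freedom 3.39 to 21.4). Poisson intervals are exact at 95%.

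The 10 genes and the gene lists were chosen with earlier results of these data known. From the lists, every called gene was named, and a fixed set of receptors, kinases and immediate early genes whether called or not. Some genes of the lists are not reported here.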

Additional observations from a re-analysis of the deposited data

Results flagged for a closer look

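In each group of 6 libraries, the gap between the highest or lowest library and its neighbour was compared with the whole range by Dixon's criterion (critical ratio 0.625). Of 20 groups, 10 genes in 2 conditions, 2 had a library that stood apart, where chance gives about 1 in 20. Spry4 was at 35.4 CPM in mild-hypo-OPC replicate 1, with a ratio of 0.717, and without that library its log2 fold change stayed uncalled. Egr1 was at 13.6 CPM in mild-hypo-OPC replicate 5, with a ratio of 0.63.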

How the results depend on the processing

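The depth of the groups did not overlap, so depth and condition cannot be told apart, and counts of Egr1 and Etv4 in standard OPCs limit their precision most. Spread between libraries may be technical. Of the 10 genes, 8 were called higher with library size only, 1 (Egr1) in replicates 4 to 6, and 0 to 1 when each library was left out (1 without standard OPC replicate 1). Pathway genes called higher numbered 74 with library size only, 1 in replicates 1 to 3, 0 with the depth covariate and 11 to 17 with a library left out. Those called lower numbered 1, 1 and 0 in these first 3 fits, 5 in replicates 4 to 6, 5 after thinning to the smallest total and 4 to 9 with a library left out (5 without mild-hypo-OPC replicate 1, 4 without replicate 5). Over all genes, library size only gave 5515 higher and 405 lower of 8938, and the depth covariate 0 and 43 of 8938. Replicates 1 to 3 gave 53 and 343 of 8554, replicates 4 to 6 569 and 1381 of 8785, and thinning 534 and 1045 of 9262. Fold changes turned to positive with library size only for Spry1 (0.25), Spry2 (0.40), Etv4 (0.42) and Etv5 (0.35), in replicates 1 to 3 for Spry1 (0.031), Spry2 (0.040) and Etv4 (0.12), with the depth covariate for Spry1 (0.38), Spry2 (0.021) and Etv4 (0.16), with upper-quartile factors for Spry2 (0.037) and Etv4 (0.062), without a filter for Spry2 (0.001) and Etv4 (0.03), and for Etv4 in limma-voom (0.034), in DESeq2 (0.008) and without ribosomal RNA genes (0.016). They turned to negative with the depth covariate for Spry4 (-0.034), Spred1 (-0.16) and Dusp6 (-0.068), in replicates 4 to 6 for Spry4 (-0.008) and after thinning for Fos (-0.12). Leaving out each library gave -0.080 to 0.023 for Spry2 and -0.117 to 0.080 for Etv4. The cause of these changes of sign was not tested. Etv4 did not pass the filter in replicates 4 to 6 or without mild-hypo-OPC replicate 2. With the replicate block, 0 of the 10 genes were called and 21 of the 23 pathway calls were kept, and all genes gave 572 higher and 1471 lower. Deviations of log2 CPM from the group means correlated between -0.276 and 0.296 for same-numbered libraries, so the numbers were not taken as pairs.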
